A study of Mus musculus with 4 samples.

Results

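Clta, Trp53inp2, Desi1 and Ankrd11 are 4 mouse genes that were each read by several probe sets of an expression array, and at least 1 probe set of each was higher in pseudopodia while another was lower. They were chosen by the measured difference between pseudopodia and cell body arrays of their probe sets, so their values on that contrast are a description and support nothing by themselves. Together they had 15 probe sets annotated with a single gene symbol, of 34958 such probe sets and 45101 in all. All 15 passed the filter on dim signals, which used the mean over all 4 arrays. The probe sets 1444396_at of Trp53inp2 and 1457181_at of Desi1 passed it only through their cell body signals, as their pseudopodia means lay below its cutoff. The array measured RNA from NIH/3T3 cells, a mouse embryonic fibroblast line, that were serum-starved overnight and left to spread for 2 h on a porous membrane coated with fibronectin. Lysophosphatidic acid (LPA), a phospholipid that stimulates migration, was given from below at 150 ng/ml for 1 h in every sample, so no unstimulated sample enters the comparison. The cells were then fixed, and 1 face of the membrane was wiped clean to leave either the pseudopodia below or the cell bodies above. There were 4 arrays, 2 of each fraction, from samples described as independent. How the cultures were separated is not described, and p-values here therefore reflect only how far these arrays differ.

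The 4 genes have unrelated products. Clta encodes clathrin light chain A, which binds the heavy chain in the coat of endocytic vesicles. Trp53inp2 encodes a protein that leaves the nucleus on starvation, binds the LC3 and GABARAP family on autophagosomes, and also acts as a coactivator of nuclear hormone receptors. Desi1 encodes an isopeptidase that removes the small protein SUMO from its targets. Ankrd11 encodes a large nuclear protein with ankyrin repeats that binds coactivators of nuclear receptors and recruits histone deacetylases. RNAs can be delivered to cell protrusions or kept in the nucleus, and different transcripts of a gene can differ in where they lie. A probe set reads a short stretch of transcript, usually near its 3' end. A name ending in _a_at marks probes shared by transcripts of 1 gene, and one ending in _s_at marks probes shared by several transcripts that can include other genes. Signals of different probe sets are not on a common scale of RNA amount, so differences are taken within a probe set between arrays, and signal strength is used only to pick or group probe sets and to add up markers.

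The arrays as a whole set the frame for these values. The median signal was between 29.8 and 33.3 on the 4 arrays. The median difference over all probe sets kept was -0.03. Of 8 fibroblast markers, 7 passed the filter and Thy1 did not, with signals from 5.7 to 56.3. The summed signal of the 8, which the brightest of them carry, was 104688 to 106301 in cell bodies and 102008 to 104830 in pseudopodia. None of the 7 passed (limma, adjusted over genes), but they did not move together: Pdgfra, a growth factor receptor, stood at -0.92 ± 0.21 and Vim, the intermediate filament vimentin, at 0.27 ± 0.12 (log2 of pseudopodia over cell body). The 3 blood markers measured were dim, with sums of 80.2 to 97.7 in cell bodies and 36.0 to 82.4 in pseudopodia. So were the 3 of endothelium, with 36.1 to 48.7 and 41.2 to 84.6. Of these, Cd68, with signals up to 69.0, and Kdr, up to 70.6, passed the filter. The 4 epithelial markers summed to 735.5 to 783.2 in cell bodies and 596.4 to 920.7 in pseudopodia. Krt8 (mean signal 383.7) and Epcam (271.1) carried most of this, and Krt18 did not pass the filter. The 4 RNAs retained in the nucleus summed to 6377 to 7067 in cell bodies and to 1427 to 2821 in pseudopodia. Of these 4, Neat1 (-2.17 ± 0.21) and Kcnq1ot1 (-1.54 ± 0.25) passed as lower, Malat1 did not pass at -1.39 ± 0.50, and Meg3, with signals of 41.7 to 82.4, stood at -0.12 ± 0.38. The 3' over 5' signal ratio of the beta-actin controls, which reflects RNA integrity, was higher on the pseudopodia array by 1.14 times in replicate 1 and 1.81 times in replicate 2. For the Gapdh controls the factors were 1.05 and 1.06. These shifts stand beside every probe set that was lower in pseudopodia, and their part in the results was not tested.

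All differences below are log2 of pseudopodia over cell body, on log2(value + pseudocount) values with a pseudocount of 32, given with the SE from limma and n = 2 arrays in each fraction. A probe set passed when its adjusted p (limma, Benjamini-Hochberg over 22519 probe sets) was under 0.05. Of the 15 probe sets, 4 passed as higher in pseudopodia, where 1.08% of all probe sets kept did, and 4 passed as lower, against 3.32%. Each gene had exactly 1 of each. These shares follow from how the genes were chosen. The 7 remaining probe sets did not pass. The cell body and pseudopodia arrays did not overlap in 13 of the 15, against 52.9% of all probe sets. That count includes every probe set that passed, so it too follows in part from how the genes were chosen.

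**Figure D1:**
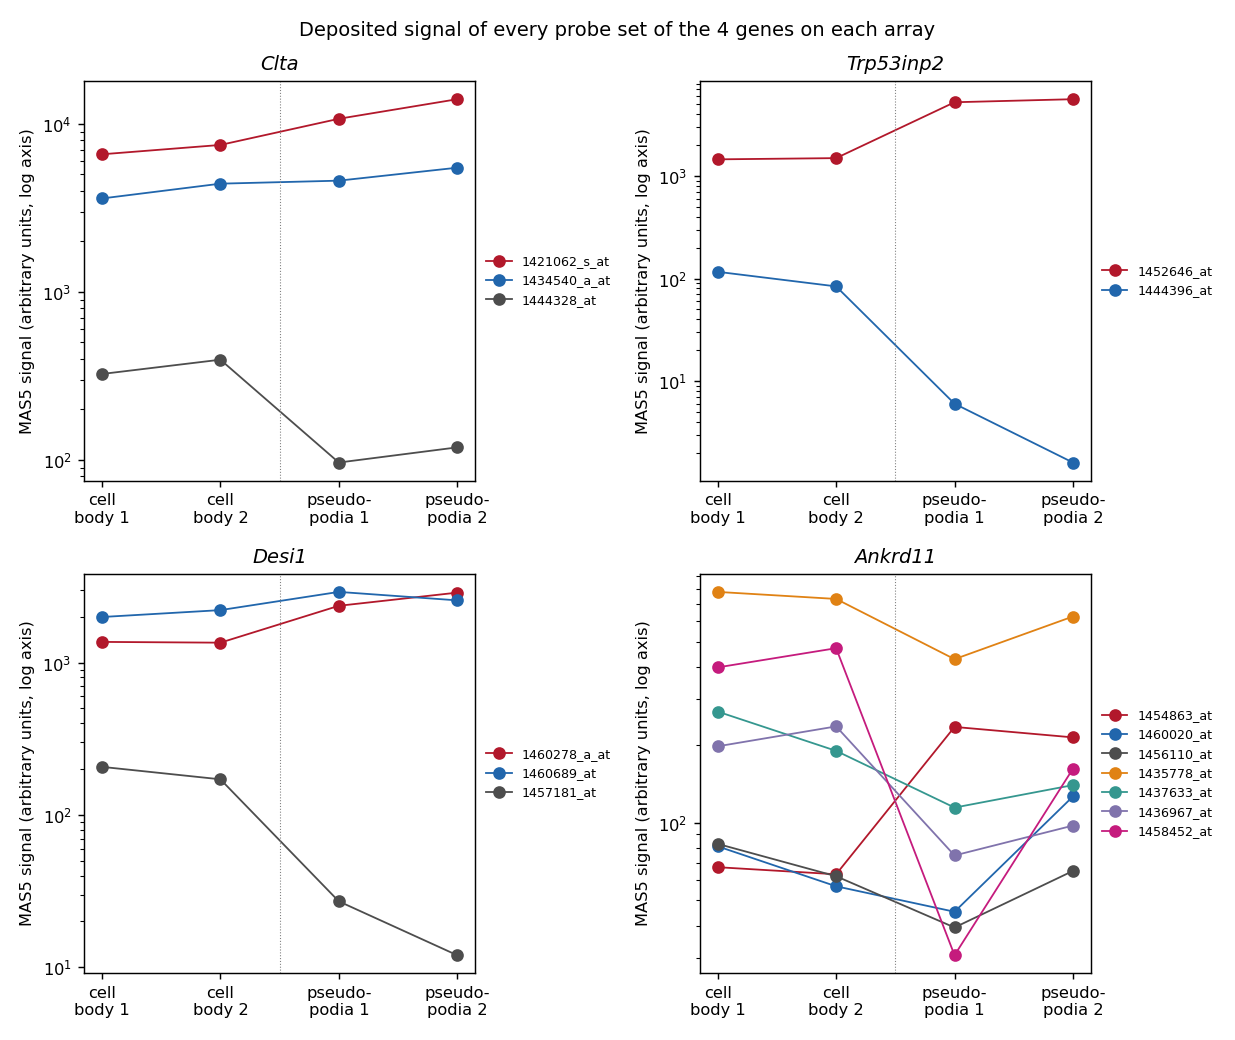
Deposited MAS5 signal (arbitrary units, log axis) of each probe set on the 2 cell body and 2 pseudopodia arrays, 1 panel per gene; lines join the values of 1 probe set. In each of the 4 panels at least 1 probe set lies higher on both pseudopodia arrays than on both cell body arrays while another lies lower on both.

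Clta, the clathrin light chain gene, had 3 probe sets. The probe set 1421062_s_at, built on the RefSeq transcript, read 6595.2 and 7496.8 in cell bodies but 10730.6 and 14034.3 in pseudopodia. The pseudopodia arrays were both higher, and the difference was 0.80 ± 0.18, a fold of 1.74. The probe set 1434540_a_at moved the same way by less, from 3599.9 and 4408.8 to 4594.4 and 5487.7, a difference of 0.33 ± 0.18 that did not pass. The probe set 1444328_at went in the opposite direction. It read 324.6 and 394.8 in cell bodies but 96.4 and 118.7 in pseudopodia, a difference of -1.60 ± 0.25. This was the most even of the 4 genes' falls between replicates, with -1.60 in the replicate 1 pair and -1.61 in the replicate 2 pair. The probe set 1444328_at was built on an expressed sequence tag (EST), a single-pass read of a cDNA clone.

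Trp53inp2, the autophagy and coactivator gene, had 2 probe sets, which moved far apart. The probe set 1452646_at, built on a full-length cDNA, read 1456.0 and 1496.7 in cell bodies but 5252.7 and 5625.6 in pseudopodia. The replicates of each fraction lay close together and the fractions far apart, at 1.87 ± 0.17 or 3.65-fold. The probe set 1444396_at, built on an EST, had 116.3 and 83.8 in cell bodies but 6.0 and 1.6 in pseudopodia. The pseudopodia signals were below the median signal of their arrays, so the size of this fall depends on how low values are treated. The difference was -2.55 ± 0.39 with the pseudocount of 32, -3.78 with 8 and -1.27 with a pseudocount 4 times as large. In the replicate pairs it was -2.59 and -2.50.

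Desi1, the SUMO isopeptidase gene, had 3 probe sets, of which 2 were higher and 1 was lower. The probe set 1460278_a_at, built on the RefSeq transcript, rose from 1367.7 and 1351.9 in cell bodies to 2360.5 and 2880.4 in pseudopodia (0.93 ± 0.19, a fold of 1.91). The probe set 1460689_at, built on a full-length cDNA, had signals of 1992.5 and 2211.3 against 2912.2 and 2562.8. Its arrays did not overlap, although its difference of 0.38 ± 0.18 did not pass. The EST-based probe set 1457181_at had 206.9 and 171.4 in cell bodies but 27.1 and 12.0 in pseudopodia. Both pseudopodia signals were again below the median of their arrays, and the difference was -2.56 ± 0.33, or -3.11 and -1.60 with the smaller and the larger pseudocount. The replicate pairs gave -2.37 and -2.74.

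Ankrd11, the chromatin regulator gene, differed from the other 3 genes in that most of its probe sets pointed towards the cell body. Of its 7 probe sets, all built on ESTs, 5 had negative values and 2 had positive ones. The 1 that passed as higher was 1454863_at, with 67.2 and 63.1 in cell bodies but 234.1 and 213.3 in pseudopodia (1.56 ± 0.25, a fold of 2.95). Its replicate pairs gave 1.59 and 1.54. The 1 that passed as lower was 1436967_at, with 197.0 and 235.2 against 74.6 and 97.3 (-1.19 ± 0.26). The probe set 1458452_at had the most negative value, -2.30 ± 0.55, but did not pass. Its cell body signals of 397.6 and 471.7 were both above the pseudopodia signals of 30.7 and 161.4, and the latter differed more from each other than those of any other of the 15 probe sets. Its difference was -3.15 in replicate 1 and -1.46 in replicate 2.

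The remaining Ankrd11 probe sets did not pass. The probe set with the highest signals of the gene, 1435778_at, had 778.3 and 731.0 in cell bodies but 427.8 and 625.3 in pseudopodia (-0.53 ± 0.24). The probe sets 1437633_at and 1456110_at were built on the same EST, so they share their source. They stood at -0.76 ± 0.27, with no overlap between fractions, and at -0.39 ± 0.34, with overlap. The probe set 1460020_at had 80.9 and 56.7 in cell bodies but 45.2 and 126.1 in pseudopodia, so that it was lower in replicate 1 (-0.66) and higher in replicate 2 (0.97). Of the 15 probe sets it was 1 of 2 whose replicate pairs differed in sign, the other being 1456110_at, at -0.84 and 0.05.

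**Figure D2:**
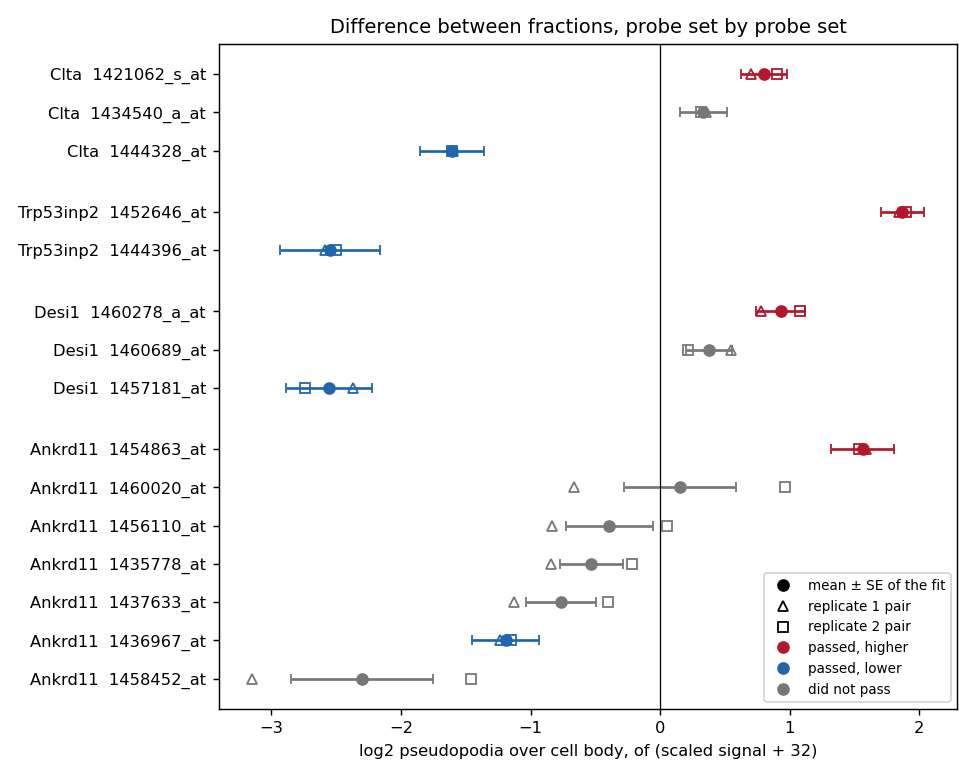
Difference between fractions (log2 pseudopodia over cell body) of the 15 probe sets; filled points are the mean ± SE of the limma fit, open triangles and squares the replicate 1 and replicate 2 pairs of arrays, and colours show which probe sets passed. The 8 that passed have their replicate pairs on the same side of 0, and the pairs lie furthest apart for 1458452_at and 1460020_at of Ankrd11.

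The distance between the differences of the highest and the lowest probe set sums up the opposition in each gene. It is built from the values by which the genes were chosen, so it describes them and tests nothing. In Clta the distance was 2.30 in replicate 1 and 2.51 in replicate 2, and in Desi1 it was 3.15 and 3.82. In Trp53inp2 the 2 pairs gave 4.43 and 4.40, but its lower probe set was near background in pseudopodia, and the mean of 4.42 became 5.66 with a pseudocount of 8 and 3.10 with the larger one. Ankrd11 was the least even between replicates, at 4.73 and 2.99, as its lowest probe set 1458452_at was uneven in pseudopodia.

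Such opposition was rare on the array at this threshold, at which few probe sets passed at all (1.08% as higher and 3.32% as lower). Of 5035 genes with at least 2 probe sets kept, 7 (0.139%) had 1 probe set called higher and another called lower, namely the 4 genes and Gas5, Slco2a1 and Snx5. With the replicate number as a block, which pairs arrays by scan day, the limma fit gave 52 genes, including these 7. In Slco2a1, a prostaglandin transporter, the probe set 1444242_at stood at 1.27 ± 0.26 and 1420913_at at -1.05 ± 0.22, the latter with signals of 1698.4 and 1813.0 against 713.8 and 989.2. In Snx5, a sorting nexin of endosomes, 4 of 5 probe sets were between 0.60 and 1.02 and 1437074_at stood at -1.52 ± 0.27. The distance between the highest and the lowest probe set of a gene had a median of 0.51 over the 5035 genes and a 95th percentile of 1.67. Among these genes Trp53inp2 ranked 1 in this distance, Ankrd11 2, Desi1 6 and Clta 51. Without pseudopodia replicate 2 the ranks were 2, 1, 26 and 126 in the same order, with Ankrd11 at a distance of 4.89, and without pseudopodia replicate 1 they were 1, 38, 3 and 83. The lowest probe set need not be one that passed. That of Ankrd11, 1458452_at at -2.30 ± 0.55, did not, nor did that of Slco2a1, 1450032_at at -1.34 ± 0.32. A gene with more probe sets has more chances of a wide distance. Ankrd11 had 7, which 28 genes reached, while the median gene had 2, as did Trp53inp2. Opposite signs without a test were common: in 48.1% of the genes the highest value was above 0 and the lowest below it.

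**Figure D3:**
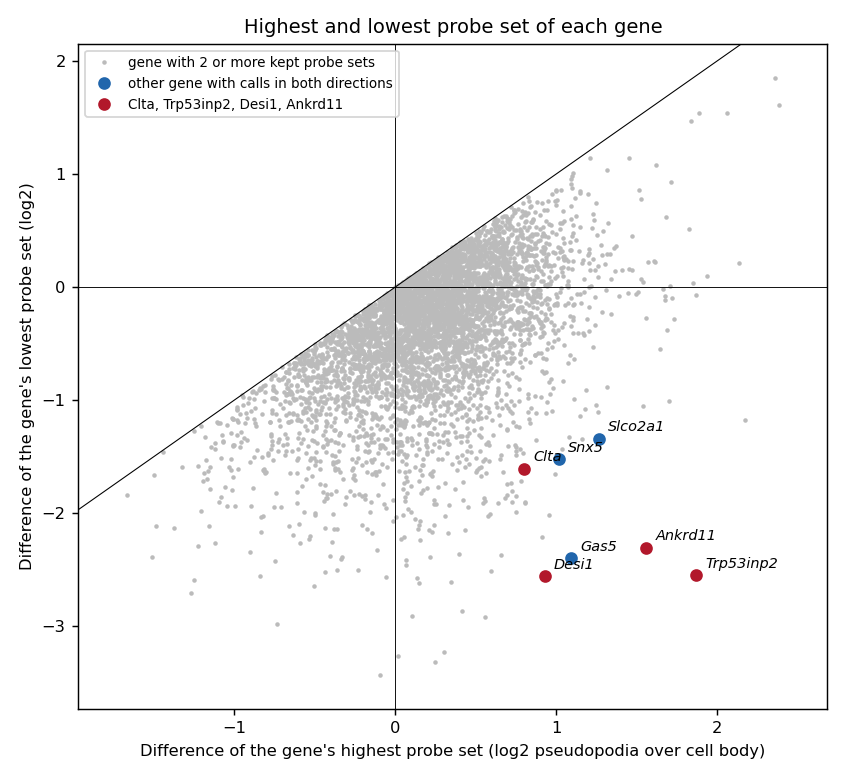
Each point is 1 of 5035 genes with at least 2 probe sets kept, placed by the difference (log2 pseudopodia over cell body) of its highest probe set (horizontal) and of its lowest probe set (vertical); the diagonal marks equal values. The 7 genes with calls in both directions lie at the lower right, with Trp53inp2 at 1.87 and -2.55 furthest from the diagonal. For Ankrd11 and Slco2a1 the lowest probe set shown is not one that passed.

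The genes most like the 4 were found by the distance over 4 values, the differences of the highest and the lowest probe set in each replicate pair. For Trp53inp2 and for Desi1 the nearest was Gas5, a host gene of small nucleolar RNAs, at distances of 1.17 and 0.60. Its probe set 1419291_x_at gave 3927.4 and 3982.1 in cell bodies but 9609.5 and 7471.1 in pseudopodia, while 1436222_at gave 212.6 and 204.7 against 30.1 and 23.6. The others, 1449410_a_at and 1424843_a_at, stood at 1.06 ± 0.16 and -1.74 ± 0.40, of which only the former passed. Next to Trp53inp2 stood Ankrd11, at 1.26, and next to Desi1 stood Zmat2, at 0.64, with values of 0.91 and -2.21. Clta was closest to Wdr26 (0.25, with 0.78 and -1.43) and Trim41 (0.36, with 0.78 and -1.71). Ankrd11 was closest to Sfi1 (1.26, with 0.96 and -2.02), followed by Trp53inp2. In Zmat2, Wdr26, Trim41 and Sfi1 at least 1 probe set passed as lower and none as higher. These distances rest on 4 arrays and describe likeness of pattern only.

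Of the 15 probe sets 11 were built on ESTs. These include the 4 that passed as lower, and those that passed as higher were built on RefSeq or full-length cDNA sequences in Clta, Desi1 and Trp53inp2 and on an EST in Ankrd11. Over the whole array, 2.87% of 9466 probe sets built on ESTs passed as lower, 3.08% of 3503 from RefSeq, 2.96% of 3913 from full-length cDNAs, 3.03% of 1289 from other sources and 4.88% of 4348 with no source in the annotation used here. Among 1574 other genes with both kinds, the EST-based probe sets stood below the cDNA-based ones in 47.1%, with a median of 0.03 between them. By signal strength, 6 of the 15 probe sets lay in the brightest tertile of those kept, where 3 passed as higher and none as lower. In the middle tertile were 5, of which 1 passed as higher and 2 as lower. The dimmest tertile held 4, of which 2 passed as lower and none as higher. Tertiles were cut on the mean over all 4 arrays, so a fall in pseudopodia can itself lower the tertile of a probe set. The 2 lower ones in the dimmest tertile were 1444396_at and 1457181_at, which passed the filter only through their cell body signals. Their tertile is therefore not independent of their difference. Over the array, 2.44% of the brightest tertile passed as higher and 4.25% as lower, 0.706% and 4.28% of the middle one, and 0.0932% and 1.43% of the dimmest. In 59.0% of 5031 other genes the dimmest probe set stood below the brightest, by a median of -0.14 over all of them. Dimmest and brightest were likewise picked on the mean over all 4 arrays.

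Replicates of the 15 probe sets varied about as much as those of the whole array. A small replicate difference helps a probe set to pass, and the genes were chosen on the same contrast. This likeness is therefore a description only. The median absolute difference between replicates was 0.32 between pseudopodia arrays and 0.24 between cell body arrays, where all probe sets kept had 0.33 and 0.24. It was largest for Ankrd11 in pseudopodia, at 0.53, and for Clta, Desi1 and Trp53inp2 it was between 0.21 and 0.29 there.

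None of the 9 kept probe sets of the closest relatives of the 4 genes passed in either direction (limma, adjusted over probe sets). Cltb, the other clathrin light chain, read 668.1 and 746.9 in cell bodies but 1010.7 and 957.9 in pseudopodia (0.47 ± 0.20), and 0.23 on its other probe set. Trp53inp1, the paralog of Trp53inp2 that also binds LC3, stood at 0.20 ± 0.21 and 0.54. Desi2, the second member of the Desi family, stood at 0.13 ± 0.22 and 0.16. Ankrd12, the paralog of Ankrd11, stood at 0.25 ± 0.27 on its brightest probe set and at 0.22 ± 0.28 on the next. Its dimmest, 1450168_at, read 22.4 and 2.4 in cell bodies but 66.6 and 64.3 in pseudopodia, a difference of 1.62 ± 0.46 (limma adjusted p = 0.0904) that was as large as that of 1454863_at of Ankrd11 but had a wider error. None of these 4 relatives had a kept probe set with a negative difference.

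Genes that work with the 4 were described by lists, with each gene standing by its brightest probe set and p adjusted over 10962 genes, of which 0.876% passed as higher and 1.64% as lower. Of all genes tested, 2.52% passed in either direction, while in the limma fit 0 genes of the 4 lists did. With the replicate number as a block, where 17.3% of all genes passed in the limma fit, so did 4 clathrin genes (Hspa8, Itsn2 and Sh3glb1 higher, Synj2 lower), 9 autophagy genes (3 higher, 6 lower), 0 SUMO genes and 1 chromatin gene (Kat5, lower). Without pseudopodia replicate 1 it was 3, 9, 1 and 3 genes beside 15.9% of all genes, and without pseudopodia replicate 2 it was 1, 2, 0 and 0 beside 10.2%. The brightest probe set does not speak for the others. Over all probe sets kept on the array, 1.08% passed as higher and 3.32% as lower in the fit without a block. Of all kept probe sets of these genes, adjusted over probe sets in the limma fit without a block, 1 of 92 in the clathrin list passed as higher and 2 as lower, 1 of 77 in the autophagy list passed as lower, and 0 of 46 and 0 of 75 in the SUMO and chromatin lists passed. At an unadjusted p under 0.05, where 21.0% of all genes lay, there were 5 of 37 clathrin coat and endocytic adaptor genes, 12 of 39 autophagy genes, 0 of 21 genes of SUMO conjugation and removal, and 2 of 31 corepressors and chromatin cofactors. The list medians were -0.03, -0.03, 0.05 and 0.02, beside 0.01 over all genes.

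Values in the clathrin list ran from -0.64 to 1.09. Itsn2, an endocytic scaffold, had the highest, with 58.2 and 89.5 in cell bodies but 194.6 and 152.3 in pseudopodia (1.09 ± 0.29, limma adjusted p = 0.0889), while its other probe sets stood at -0.05 and -0.25. Sh3glb1, a membrane-curving protein, stood at 0.61 ± 0.19, and its other probe sets at 0.55 and 0.40. Synj2, a phosphoinositide phosphatase, stood at -0.64 ± 0.24, while its other probe sets stood at -0.68, -0.20, -0.07 and 0.04. Hspa8, the chaperone that uncoats clathrin vesicles, stood at 0.33 ± 0.13 on its brightest probe set and at 0.39 and -0.63 on 2 others. Its probe set 1420622_a_at was the 1 that passed as higher, with 5277.4 and 5847.9 in cell bodies but 8474.7 and 10157.3 in pseudopodia (0.74 ± 0.16). The 2 that passed as lower both belong to Ap2a2, a subunit of the adaptor complex AP-2. Of these, 1432007_s_at read 464.2 and 576.7 in cell bodies but 69.1 and 128.4 in pseudopodia (-2.27 ± 0.31), and 1432006_at stood at -2.41 ± 0.47. The brightest probe set of Ap2a2 stood at 0.07 ± 0.19 and did not pass. Cltc, the clathrin heavy chain that Clta binds, stood at 0.15 ± 0.23 on its brightest probe set and at -0.88 on the other. The autophagy list was the widest, from -1.24 to 0.67. Its largest statistic was that of Pik3r4, a subunit of the lipid kinase that starts autophagosomes, with 280.9 and 234.6 against 82.2 and 119.3 (-1.24 ± 0.27). Its single probe set missed the threshold when adjusted over genes (limma adjusted p = 0.0558) and passed as lower when adjusted over probe sets (limma adjusted p = 0.0480). Atg4c, a protease that processes LC3 proteins, stood at -1.24 ± 0.30 and at 0.54 on its other probe set. Map1lc3a, an LC3 protein, stood at 0.59 ± 0.15, and Vmp1, a membrane protein of the endoplasmic reticulum, at -0.89 ± 0.23.

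In the SUMO list the 4 largest statistics were those of Sumo3, a SUMO protein (0.44 ± 0.23), Pias4, a SUMO ligase (-0.37 ± 0.20), Ranbp2, a nuclear pore protein with ligase activity (0.38 ± 0.22), and Topors, a ligase for ubiquitin and SUMO (0.38 ± 0.29). The other probe set of Pias4 stood at -0.74, and those of Ranbp2 at 0.33 and -0.40. Among the chromatin cofactors they were those of Kat5, an acetyltransferase (-0.74 ± 0.31), Arid1a, a remodeller subunit (-0.53 ± 0.23), Nipbl, a cohesin loader (0.41 ± 0.22), and Tbl1xr1, a corepressor subunit (0.40 ± 0.23). The value of Kat5 was -0.21 in replicate 1 and -1.26 in replicate 2.

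**Figure D4:**
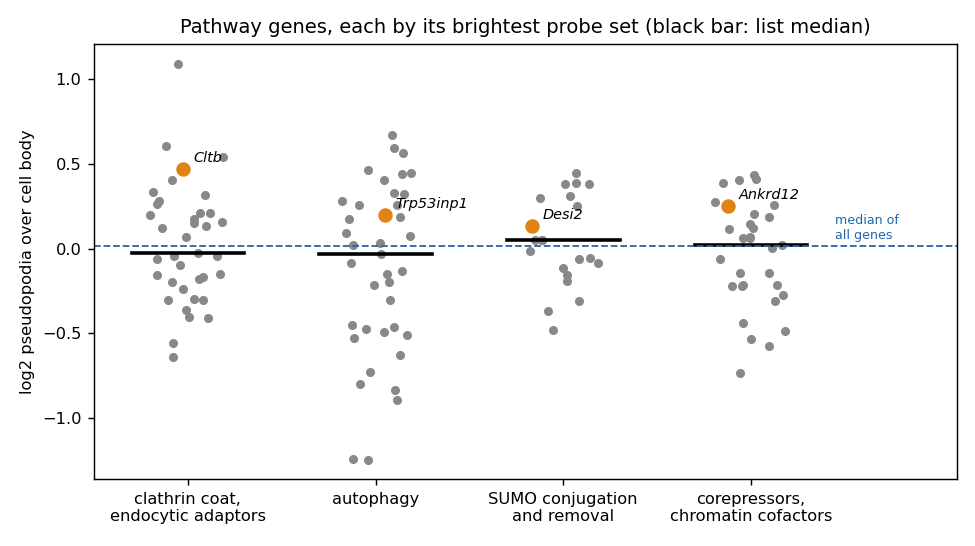
Difference (log2 pseudopodia over cell body) of each measured gene of 4 lists, by its brightest probe set, with 37, 39, 21 and 31 genes; black bars mark the list medians, the dashed line the median of all genes and orange points the closest relative of each of the 4 genes. The medians lie between -0.03 and 0.05, and the orange points between 0.13 and 0.47.

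The calls in the 4 genes lay near the threshold in part. The values just inside were those of 1421062_s_at of Clta (limma adjusted p = 0.0491) and 1436967_at of Ankrd11 (limma adjusted p = 0.0487), and the value just outside was that of 1458452_at of Ankrd11 (limma adjusted p = 0.0595). Trp53inp2 and Desi1 kept calls in both directions with quantile normalization and with a pseudocount of 8, where Clta and Ankrd11 lost theirs. Median centring kept Clta, Trp53inp2 and Desi1, and scaling on hybridization controls kept Trp53inp2 and Ankrd11. With only probe sets named _at or _a_at, Clta dropped out. Without the filter on dim probe sets only 1452646_at of Trp53inp2 passed, and limma with no trend in the variance called 0 probe sets on the whole array (4487 at an unadjusted p under 0.05, with 10 of the 15 among them). Without cell body replicate 1, or without cell body replicate 2, 0 probe sets passed (2502 and 2959 at an unadjusted p under 0.05), and the number of genes with calls in both directions was 94 without pseudopodia replicate 1 and 23 without pseudopodia replicate 2. The probe set 1458452_at passed as lower with the replicate number as a block, on hybridization controls and with the larger pseudocount. Over the array these fits called 1541 higher and 2546 lower, 54 and 1510, and 320 and 971, against 243 and 747. Without pseudopodia replicate 1 its difference was -1.34 and without replicate 2 it was -3.27, where the cell body arrays alone set its spread. All 4 genes kept calls in both directions with the block and with the larger pseudocount, where 52 and 11 genes on the array had them. The 8 differences that passed kept their sign with quantile normalization, median centring and hybridization controls. The other fits could not have reversed them. The arrays of these 8 did not overlap, and the filter, the variance trend and the block leave a difference as it is.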

How the data were processed

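The authors deposited a linear intensity for each probe set on each array, computed with MAS5 according to the labels and the submitters' processing notes, and already scaled to the same trimmed mean of 250.0, found from the values. The MAS5 version and detection calls are not given in the sources used here. Differences are therefore relative to the total signal of a fraction, and fewer cells and less RNA per cell cannot be told apart.

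Each array was rescaled to a mean of 500 after trimming 2% of values from either end, then transformed as log2(signal + 32). The 22519 probe sets whose mean log2 value reached the median of the 45037 that are not controls were fitted in R 4.3.3 by limma 3.58.1 (lmFit, then two-sided eBayes with its trend option), and p was adjusted over all of them by Benjamini-Hochberg. With 2 arrays a fraction the smallest p of an exact permutation test is 0.333, and none was run. The fit was also run on simulated data. These were drawn from its own variance model, so that run cannot show whether the model suits these arrays.

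Symbols came from the platform annotation, and the source class of a probe set from the prefix of its accession. Where a probe set lies in its gene was not analysed here. The genes, lists and alternatives were chosen with earlier results of these data known. Named genes are all probe sets of the 4 genes, the closest relative and up to 4 members with the largest statistic of each list, and the 2 genes most like each of the 4. Ap2a2, Cltc, single markers and the 3 other genes with calls in both directions were named after their values were seen.

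Per the file headers, arrays of the same replicate number were scanned on the same day. The labels state no pairing of cultures, so the main fit had no block. Replicate 2 minus replicate 1 differences correlated between fractions with r = 0.243 over probe sets, which are not independent. Results were also computed with the replicate number as a block, which leaves 1 residual degree of freedom. Other alternatives were quantile normalization, median centring, 18 hybridization control probe sets, pseudocounts 4 times smaller (8) and larger, no filter, no variance trend, and leaving out each array.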

Additional observations from a re-analysis of the deposited data

How the results depend on the processing

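Probe sets called higher (243) and lower (747) numbered 385 and 472 after median centring, 54 and 1510 on hybridization controls, 39 and 137 without the filter, 0 and 0 without the variance trend, and 1541 and 2546 with the replicate block. Leaving out 1 array gave 0 to 1304 and 0 to 2652, where a lone array is assumed to vary like the other fraction. Genes with calls in both directions (7) numbered 4 after quantile normalization, 3 on hybridization controls, 3 and 11 with the smaller and the larger pseudocount, 0 without the filter, 0 without the variance trend, 52 with the block and 0 to 94 without 1 array. The distance between the highest and lowest probe set of Clta (2.41) was 1.94 after quantile normalization and 2.10 with the larger pseudocount. That of Trp53inp2 (4.42) was 4.28 after quantile normalization, 4.24 on hybridization controls, 5.66 and 3.10 with the smaller and larger pseudocount, and 4.19 to 4.64 without 1 array, and that of Desi1 (3.49) was 4.05 and 2.51 with these pseudocounts. That of Ankrd11 (3.86) was 2.84 to 4.89 without 1 array. List genes called (0) numbered, with the block, 4 in the clathrin, 9 in the autophagy and 1 in the chromatin list. Without 1 array they numbered 0 to 3, 0 to 9 and 0 to 3 in the same order and 0 to 1 in the SUMO list, and autophagy had 2 on hybridization controls and 1 with the larger pseudocount. Of the 15 differences 7 were above 0, or 6 on hybridization controls, without cell body replicate 2 and without pseudopodia replicate 2. The 1 that changed sign each time was 1460020_at of Ankrd11 (0.15 ± 0.43), at -0.13, -0.06 and -0.46 in the same order. Why results moved between settings was not tested. No called difference reversed, which only quantile normalization, median centring and hybridization controls could have brought about. The number of arrays limits all precision.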
